A study of Homo sapiens with 6 samples.

Results

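EIF5, the gene of the translation initiation factor eIF5, was examined together with 9 genes whose products choose the start codon beside it: EIF1, EIF1B, EIF1AX, EIF5B, EIF2S1, EIF2S2, EIF2S3, BZW1 and BZW2. EIF5 was selected on its lower level after compound in the libraries described here, and the other 9 were taken by function to be set against it, so values of these 10 genes for compound against vehicle are a description and carry no test. All 10 were found among the 60676 gene IDs of the count tables, and all 10 were abundant enough to be among the 15577 genes tested. The samples were cells of HEK293A, an established line that descends from HEK293 (embryonic kidney, human), given the DMSO vehicle (3 libraries) or 20 nM VT01454 (3 libraries) for 2 h. VT01454 is given by code name only, and the labels name no other treatment and no genetic change in either group. Libraries were made from total RNA. Nothing in the labels tells separate cultures from repeat libraries, so the p-values below reflect library-to-library spread alone, and that may be technical. The series title concerns PITP proteins, phosphoinositides and the Hippo pathway.

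The small ribosomal subunit scans an mRNA from its 5′ end with eIF1, eIF1A, eIF5 and the ternary complex of eIF2, GTP and initiator tRNA bound to it. eIF1 holds the subunit in a scanning state and disfavours starts at poor sites, while eIF5 stimulates GTP hydrolysis by eIF2 and favours the closed state that commits to a start codon, so eIF1 and eIF5 have opposing effects on how strictly AUG codons are chosen. BZW1 and BZW2 encode the eIF5-mimic proteins, which share the C-terminal domain of eIF5 without its catalytic part and compete with it for eIF2, and eIF5B joins the large subunit afterwards. Start sites are read best with A or G at position −3 and G at position 4, counting the A of the ATG as the first base and going upstream from −1, and the mRNAs of several of these factors are known to carry start sites through which the factors regulate their own synthesis.

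The annotated start sites of the 10 genes are shown because they are the feature that these factors read, and they do not depend on any count. Each run holds 12 bases before the ATG, the ATG and 6 bases after it, 5′ to 3′ on the transcript strand, from GENCODE release 29 on GRCh38. Capitals mark position −3, the ATG and position 4.
EIF5: taataagccAaaATGTctgtc
EIF1: gaatcgtatCgtATGTccgct
EIF1B: cactagtatCgcATGTccact
EIF1AX: gccgccaccGccATGCccaag
EIF5B: cattgacaaGcaATGGggaag
EIF2S1: acatacctcAgaATGCcgggt
EIF2S2: cgagccgcaGccATGTctggg
EIF2S3: tcttttggcAacATGGcgggc
BZW1: cgggtgtctTttATGAataat
BZW2: cccagaaatTttATGAataag

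Both favoured bases were present at 2 of these 10 sites, EIF5B and EIF2S3. Neither was present at 4 sites, those of EIF1, EIF1B, BZW1 and BZW2. For BZW1 and BZW2 this holds for the start shown. Among other annotated BZW1 starts, those of BZW1-202 and BZW1-206 had both bases and that of BZW1-209 had neither. Other annotated BZW2 starts had either a favoured base at −3 or G at position 4, not both. Among 18501 protein-coding genes read in the same way, 41.8% of sites had both bases and 7.76% had neither. EIF1 with EIF1B, and BZW1 with BZW2, are paralogue pairs with related sequence around the ATG, so the 4 sites are not independent. EIF5, EIF1AX, EIF2S1 and EIF2S2 had only the base at −3, which was present at 84.2% of all sites, while G at position 4 was present at 49.9%.

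The 5′ leaders of EIF5 held upstream ATG triplets. Its 10 coding transcripts with a complete start shared 1 start codon (first base at chromosome 14, 103335861) and had leaders of 242 to 912 bases with 1 to 18 upstream ATGs. The transcript used above, EIF5-201, had a leader of 676 bases with 6, where the median leader over all genes was 187 bases. EIF2S1, the eIF2 alpha subunit gene, had 8 upstream ATGs in 461 bases, and EIF1, EIF1B and EIF1AX had 0 in 146, 258 and 204 bases. At least 1 upstream ATG was found in 7 of the 10 leaders and in 53.6% of all 19573 leaders read. BZW1 was annotated with 4 start codons over 8 coding transcripts, of which 5 used the one shown. Counts per gene do not tell which leader or start was in use.

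EIF5 was the 1 gene of the 10 that was clearly lower with compound. EIF5 (chromosome 14, 103333544 to 103345025, plus strand) had 8469, 7812 and 12103 counts in the vehicle libraries and 5684, 5162 and 5018 in the compound libraries. Scaled for library size by TMM factors, these were 399.5, 408 and 447 CPM (counts per 1000000 counts) with vehicle and 199.5, 207 and 205 CPM with compound. All 3 compound libraries lay below all 3 vehicle libraries, and vehicle library 3 was the highest of the 6. Vehicle averaged 418 ± 25.2 CPM and compound 204 ± 4.06 CPM (SD over 3 libraries), which is 2.05-fold lower. The fitted log2 fold change was −1.04 ± 0.06, where the error is the SE. As a description, its fold change ranked 90 from the lowest among the 15577 tested genes. Among the 2469 with a mean of at least 100 CPM, a minimum set after the values were seen, it ranked 2, after the YAP/TAZ target gene CCN2. In bulk libraries a lower level in every cell and a loss of the transcript from some cells cannot be told apart.

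EIF1 and EIF1B stood on the other side of vehicle. EIF1 (chromosome 17, 41688885 to 41692668), the gene of the scanning factor that opposes eIF5, measured 416, 450 and 402 CPM with vehicle and 530, 516 and 517 CPM with compound. The groups did not overlap, with means of 423 ± 24.7 and 521 ± 7.68 CPM and a log2 fold change of 0.30 ± 0.06. Its paralogue EIF1B (chromosome 3, 40309684 to 40312424) measured 42.9, 45.8 and 45.9 CPM with vehicle and 57.6, 53.8 and 55.5 CPM with compound. These groups did not overlap either, with a log2 fold change of 0.31 ± 0.07. The 2 paralogues were shifted by nearly the same factor, 1.23-fold and 1.24-fold, and the ratio of EIF1 to EIF1B counts was 9.43 ± 0.578 with vehicle and 9.37 ± 0.202 with compound.

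By the call made across all tested genes (edgeR quasi-likelihood test, Benjamini-Hochberg adjusted p below 0.05), 3 of the 10 genes were called, EIF5 as lower and EIF1 and EIF1B as higher. In that fit 1.89% of all tested genes were called, 1.27% as higher and 0.616% as lower. EIF5 was selected on this contrast, and the others were taken by function with earlier results of these data known. For these 10 genes the calls are therefore a description, and nothing further is read from their count. EIF5 was called in each refit that left out a library, but it was selected on its lower level in these same libraries. Its calls there add no separate support. EIF1 and EIF1B were not called without vehicle library 1 or any one of the compound libraries, where their log2 fold changes were 0.29 to 0.31 and 0.28 to 0.34. Without vehicle library 2 or 3 both were called, and BZW1 was called as well without vehicle library 3.

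**Figure D1:**
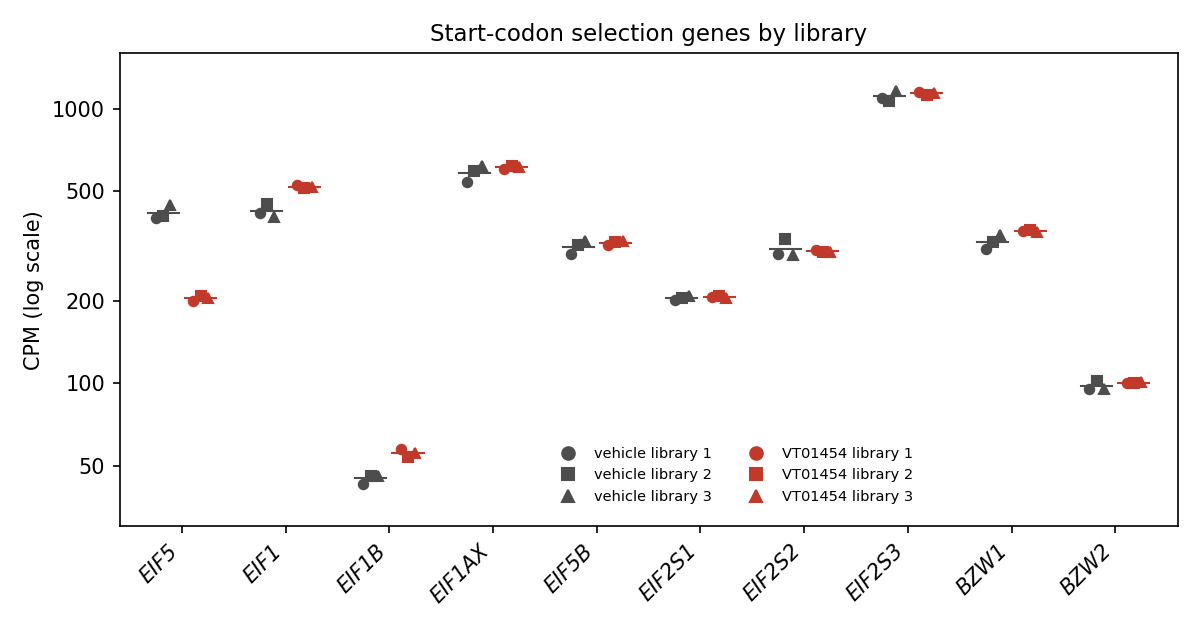
CPM on a log axis for the 10 start-codon selection genes. Each point is 1 library (grey, vehicle; red, VT01454), shapes give the library number and short lines the group means. EIF5 lies at 199.5 to 207 CPM in the compound libraries, below its vehicle libraries, EIF1 and EIF1B lie above their vehicle libraries, and the other 7 genes lie close to vehicle.

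The 3 subunits of eIF2, which carries the initiator tRNA, were at vehicle level. EIF2S1 (alpha, the subunit phosphorylated under stress; chromosome 14, 67359997 to 67386516) measured 200.6, 205 and 207 CPM with vehicle and 206, 208 and 204 CPM with compound. EIF2S2 (beta, to which eIF5 binds; chromosome 20, 34088298 to 34112332) measured 296, 335 and 294 CPM with vehicle and 307, 300.4 and 299.9 CPM with compound. EIF2S3 (gamma, the GTP-binding subunit; chromosome X, 24054716 to 24077971) measured 1099, 1066 and 1166 CPM with vehicle and 1150, 1129 and 1144 CPM with compound. All 3 pairs of groups overlapped. The log2 fold changes were 0.01 ± 0.05, −0.03 ± 0.06 and 0.04 ± 0.05.

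EIF1AX, EIF5B and BZW2 also overlapped with vehicle, and BZW1 was slightly above it. EIF1AX, which encodes eIF1A (chromosome X, 20124518 to 20141844), measured 542, 592 and 618 CPM with vehicle and 604, 617 and 615 CPM with compound (log2 fold change 0.07 ± 0.06). EIF5B, the subunit joining GTPase gene (chromosome 2, 99337353 to 99401326), measured 295, 318 and 330.1 CPM with vehicle and 319, 327 and 329 CPM with compound (0.05 ± 0.06). The eIF5-mimic gene BZW1 (chromosome 2, 200810594 to 200827338) measured 308, 328 and 347 CPM with vehicle and 358, 361 and 357 CPM with compound. Its groups did not overlap, although the log2 fold change was only 0.13 ± 0.06 and it was not called. BZW2 (chromosome 7, 16646131 to 16706523) measured 94.7, 102 and 95.3 CPM with vehicle and 99.9, 99.7 and 100.6 CPM with compound (0.04 ± 0.06). In all, 4 of the 10 genes had groups that did not overlap, where 21.1% of all tested genes did.

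The SD of the vehicle libraries was larger than that of the compound libraries for 9 of the 10 genes, EIF1B being the exception (1.71 and 1.90 CPM). The coefficient of variation of EIF1B was 3.82% with vehicle and 3.42% with compound. Coefficients of variation ran from 1.57% to 7.47% with vehicle and from 0.489% to 3.42% with compound. For 7 of the 10 genes vehicle library 1 was the lowest vehicle library, and for 7 vehicle library 3 was the highest. EIF1 and EIF2S2 went the other way and were lowest in vehicle library 3. The shares of all tested genes with these traits were not counted, so none is read as particular to the 10. Outside the 10, the elongation factor gene EEF1A1 also had the larger SD with vehicle (591 and 217 CPM). The eIF3 subunit gene EIF3C had the smaller (4.67 and 9.1 CPM). The part of the vehicle spread in the small differences of EIF1 and BZW1 was not tested.

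Ratios taken within a library need no scaling between libraries, and EIF5 was lower against each of the 9 partners. As EIF5 was selected on its lower level in these libraries, lower ratios follow from that selection and are a description. EIF5 had 0.961, 0.906 and 1.11 counts for each EIF1 count in the vehicle libraries. In the compound libraries it had 0.376, 0.402 and 0.396, with a mean of 0.392 ± 0.0134. These are ratios of raw counts, and the exons of EIF5 are longer than those of EIF1. Per kb of exonic length the mean ratio to EIF1 was 0.423 with vehicle and 0.167 with compound. The mean ratio was 2.54-fold lower against EIF1 and against EIF1B, the widest shifts of the 9. Against BZW1 it went from 1.28 ± 0.0290 to 0.569 ± 0.0102, which was 2.24-fold lower. Against EIF2S2, the subunit that eIF5 binds, it went from 1.36 ± 0.152 to 0.675 ± 0.0218, the narrowest shift at 2.02-fold. The remaining 5 ratios were 2.07-fold to 2.15-fold lower. The groups did not overlap for any partner, and as all 9 ratios share the EIF5 counts they are not independent of each other.

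**Figure D2:**
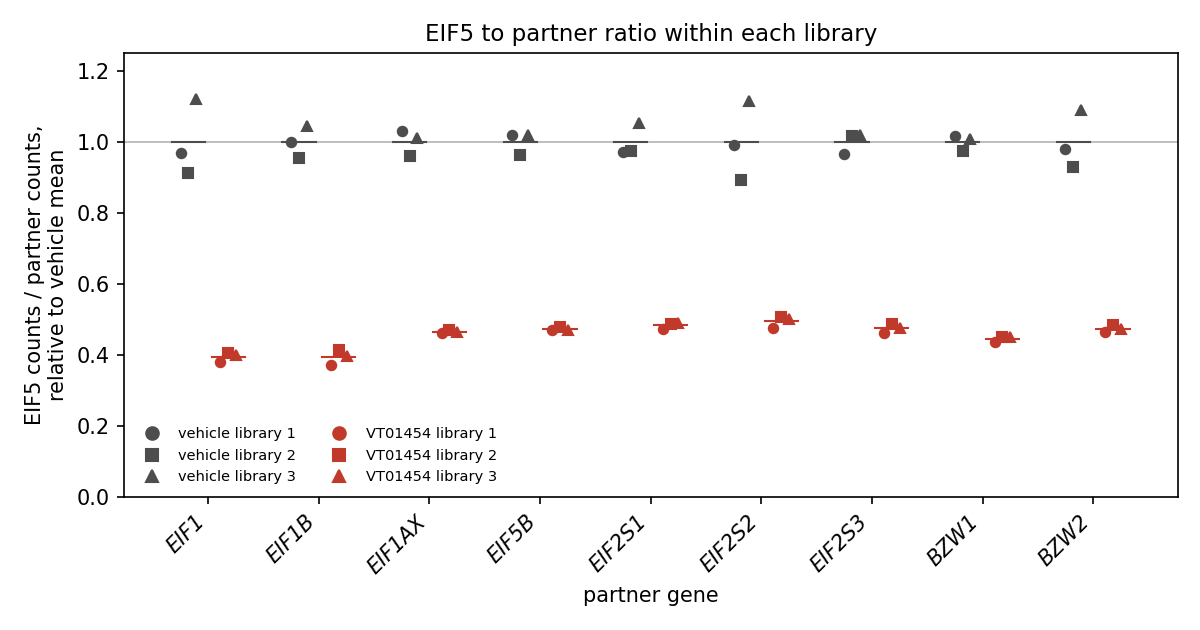
Ratio of EIF5 counts to the counts of each partner gene within a library, divided by the vehicle mean of that ratio, on a linear axis from 0. Points are libraries (grey, vehicle; red, VT01454) and short lines are group means. The compound libraries lie below 0.6 for each partner, lowest against EIF1 and EIF1B, whose ratios were 2.54-fold lower.

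Set on a scale per exonic length, EIF5 changed its place among the 10 genes. In vehicle the order in CPM per kb of exonic length was EIF2S3 (320 ± 14.5), EIF1AX (132), EIF1 (117), EIF2S2 (116), EIF5 (49.1 ± 2.97), BZW1 (40.5), EIF5B (39.9), EIF2S1 (36.1), BZW2 (26.6) and EIF1B (23.5). The libraries of EIF1AX overlapped with those of EIF1, those of EIF1 with EIF2S2 and those of BZW1 with EIF5B, while EIF5 overlapped with neither neighbour. With compound EIF5 was last of the 10 at 24.0 ± 0.478 CPM per kb, below BZW2 (27.3) and EIF1B (29.1). On this scale EIF1 (144) then stood above EIF1AX (138), with no overlap. Dividing by the length of the 1 transcript used for the start site, in place of all exonic bases, also put EIF5 at rank 5 with vehicle (70.3) and rank 10 with compound (34.3), although the order of several other genes differed. On that scale EIF1 (181) already stood above EIF1AX (132) with vehicle.

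Annotated copies of EIF5 and EIF1 held almost no reads. No EIF5 or EIF1 pseudogene in the tables had more than 1 count in any library. EIF2S3B, an expressed copy of EIF2S3, was at 27.2 ± 0.559 CPM with vehicle and 26.5 ± 1.40 with compound, and the pseudogenes EIF1AXP1 and EIF2S2P4 were at 38.4 and 12.8 CPM with vehicle and 42.6 and 13.4 with compound. Exonic bases of EIF5, EIF1, EIF1AX, EIF2S2 and EIF2S3 were shared with no other annotated gene. EIF5B shared 852 of 7883 exonic bases with REV1, and EIF1B, BZW1, BZW2 and EIF2S1 shared 15 to 269, each with a gene on the other strand. Reads from those stretches are uncertain, because the strand setting of the counting is not given in the sources used here. SNORA28, a small nucleolar RNA gene inside EIF5, had at most 4 counts per library.

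None of the 3 nearest tested genes on each side of EIF5 on chromosome 14 passed the test. The divergent transcript EIF5-DT, 1.18 kb before EIF5, was close to the counting limit at 0.574 ± 0.317 CPM with vehicle and 0.416 ± 0.108 with compound (edgeR log2 fold change −0.43 ± 0.44, adjusted p = 0.696). MARK3, the kinase gene 40.4 kb after EIF5, measured 90.6 ± 0.745 and 99.3 ± 1.98 CPM (edgeR log2 fold change 0.13 ± 0.06, adjusted p = 0.306). CKB, the brain creatine kinase gene 174.6 kb after EIF5, measured 1255 ± 134 and 1212 ± 28.0 CPM (edgeR log2 fold change −0.05 ± 0.07, adjusted p = 0.778). TNFAIP2 and CDC42BPB before EIF5 and TRMT61A-DT after it had edgeR adjusted p = 0.697, 0.6299 and 0.713. At an unadjusted p below 0.05 MARK3 alone would have passed.

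Further lists held 92 genes of initiation, elongation and termination, mRNAs with upstream reading frames or read as outputs of eIF2 phosphorylation, and polyamine genes. Of these, 89 were tested, 3 rose, 3 fell and 83 did not pass (edgeR, adjusted over all tested genes). The 6 calls are 6.74% of the 89, where 1.89% of all tested genes were called. The lists were drawn up with earlier results of these data known. The median log2 fold change of the 89 was −0.0056, where that of all tested genes was −0.0073, and an unadjusted p below 0.05 was found for 13 of them (14.6%), close to the share over the whole table (2239 genes, 14.4%). DESeq2 called 8 and limma-voom 6. Without vehicle library 1 or any one compound library 0 rose and 1 fell, and without vehicle library 3, 7 rose and 7 fell.

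None of the 13 eIF3 subunit genes, which form the scaffold of the scanning complex, passed in edgeR, DESeq2 or limma-voom, and 0 had an unadjusted p below 0.05. EIF3J and EIF3A had the smallest p of the list, with log2 fold changes of −0.11 ± 0.06 and 0.08 ± 0.05 (edgeR adjusted p = 0.414 and 0.509). EIF3C, the lowest of the list at 36.6 CPM with vehicle, had a log2 fold change of 0.22 ± 0.15 (edgeR adjusted p = 0.544). Its SE was the largest of the 13, so little is read from its not passing. The 4 other genes with the C-terminal domain type of eIF5 and BZW, EIF2B5, EIF4G1, EIF4G2 and EIF4G3, did not pass in any of the 3 tools, with 0 at an unadjusted p below 0.05. EIF2B5, the catalytic subunit gene of the eIF2 exchange factor, was at −0.01 ± 0.06 (edgeR adjusted p = 0.956), and EIF4G2, whose product drives alternative initiation, at 0.11 ± 0.06 (edgeR adjusted p = 0.405). EIF4G3, a scaffold gene of the cap-binding complex, was at 0.08 ± 0.07 (edgeR adjusted p = 0.6206).

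Of 12 genes for eIF2B, the eIF2 kinases and the eIF2 phosphatase, PPP1R15A rose and 11 did not pass in edgeR. PPP1R15A, which targets the phosphatase to eIF2 alpha, measured 66.9, 68.1 and 63.8 CPM with vehicle and 82.2, 81.1 and 79.9 CPM with compound (edgeR log2 fold change 0.29 ± 0.06, adjusted p = 0.0255). The groups did not overlap. EIF2AK3, the gene of the endoplasmic reticulum stress kinase PERK, was at 0.38 ± 0.09 and did not pass in edgeR (adjusted p = 0.0553), while DESeq2 called it (adjusted p = 0.0458). Of 19 tested genes for eIF4 factors and mRNA recruitment, DDX3X rose and 18 did not pass in edgeR. DDX3X, an RNA helicase gene that aids scanning through structured leaders, measured 1015, 941 and 1078 CPM with vehicle and 1229, 1229 and 1223 CPM with compound (edgeR log2 fold change 0.28 ± 0.06, adjusted p = 0.0255). EIF4A2, an eIF4A helicase gene, was at −0.24 ± 0.06 and did not pass in edgeR (adjusted p = 0.07598), while DESeq2 called it as lower (adjusted p = 0.0278). The edgeR calls of PPP1R15A and DDX3X were lost in the 4 refits that omitted vehicle library 1 or a compound library, with an edgeR adjusted p of up to 0.177 and 0.168.

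No gene passed in edgeR, DESeq2 or limma-voom among the 8 of non-canonical initiation and recycling, the 13 tested of elongation and hypusination or the 3 tested of termination, and 1 gene of each list had an unadjusted p below 0.05. These were EIF2A (0.15 ± 0.05, edgeR adjusted p = 0.240), which encodes an alternative initiator tRNA carrier, the elongation factor gene EEF1B2 (−0.16 ± 0.07, edgeR adjusted p = 0.293) and N6AMT1, a methyltransferase gene for release factors (−0.41 ± 0.10, edgeR adjusted p = 0.0693). Next by p were HBS1L and GSPT1, the genes of a ribosome rescue factor and a release factor, and EEF2 (edgeR adjusted p = 0.509, 0.539 and 0.475). Some genes of these lists and of the eIF4 list had low counts beside exons shared with other annotated genes. The part of that sharing in their levels was not tested. EEF1G was at 0 in all 6 libraries and shared 99.9% of its exonic bases with another annotated gene. EIF4A1, a gene of the eIF4 list that did not pass in edgeR, was at 3.55 CPM with vehicle and shared 48.6%.

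Among 13 mRNAs with upstream reading frames or read as outputs of eIF2 phosphorylation, IFRD1 fell, PPP1R15A rose and 11 did not pass in edgeR. IFRD1, a transcriptional co-regulator gene whose leader holds an upstream reading frame, measured 74.5, 76.5 and 79.1 CPM with vehicle and 48.3, 51.5 and 48.8 CPM with compound. The groups did not overlap, and the edgeR log2 fold change was −0.63 ± 0.06 (adjusted p = 1.09e-04), a call that held without any single library. ATF4, the main transcription factor of this response, was at 539 ± 44.0 and 599 ± 19.2 CPM and did not pass (edgeR log2 fold change 0.15 ± 0.06, adjusted p = 0.2945). ASNS, CHAC1 and DDIT3 of this list were low, at 1.14, 3.52 and 4.42 CPM with vehicle. The SE of their log2 fold changes was 0.30, 0.19 and 0.16, so little is read from their not passing. ASNS also shared 44.6% of its exonic bases with another annotated gene.

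Of 9 polyamine genes, 2 fell, 1 rose and 6 did not pass in edgeR, so 33.3% were called against 1.89% of all tested genes, in a list drawn up with earlier results known. Polyamine synthesis is known for control by upstream reading frames and unusual start codons. AZIN1, the antizyme inhibitor gene, measured 202, 194 and 218 CPM with vehicle and 156, 158 and 160.4 CPM with compound (edgeR log2 fold change −0.37 ± 0.06, adjusted p = 0.00477). AMD1, the gene of S-adenosylmethionine decarboxylase, measured 304, 309 and 339 CPM with vehicle and 260.5, 247 and 250.5 CPM with compound (edgeR log2 fold change −0.33 ± 0.06, adjusted p = 0.0114). SAT1, which encodes the acetyltransferase that starts polyamine breakdown, measured 73.1, 87.0 and 66.7 CPM with vehicle and 102, 97.3 and 97.1 CPM with compound (edgeR log2 fold change 0.39 ± 0.09, adjusted p = 0.0369). The groups of all 3 were separate. Ornithine decarboxylase ODC1 did not pass, at −0.04 ± 0.06 (edgeR adjusted p = 0.769). AZIN1, AMD1 and SAT1 did not pass in the same 4 refits, with an edgeR adjusted p of up to 0.0646, 0.136 and 0.259, and SAT1 did not pass with scaling by library size alone.

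**Figure D3:**
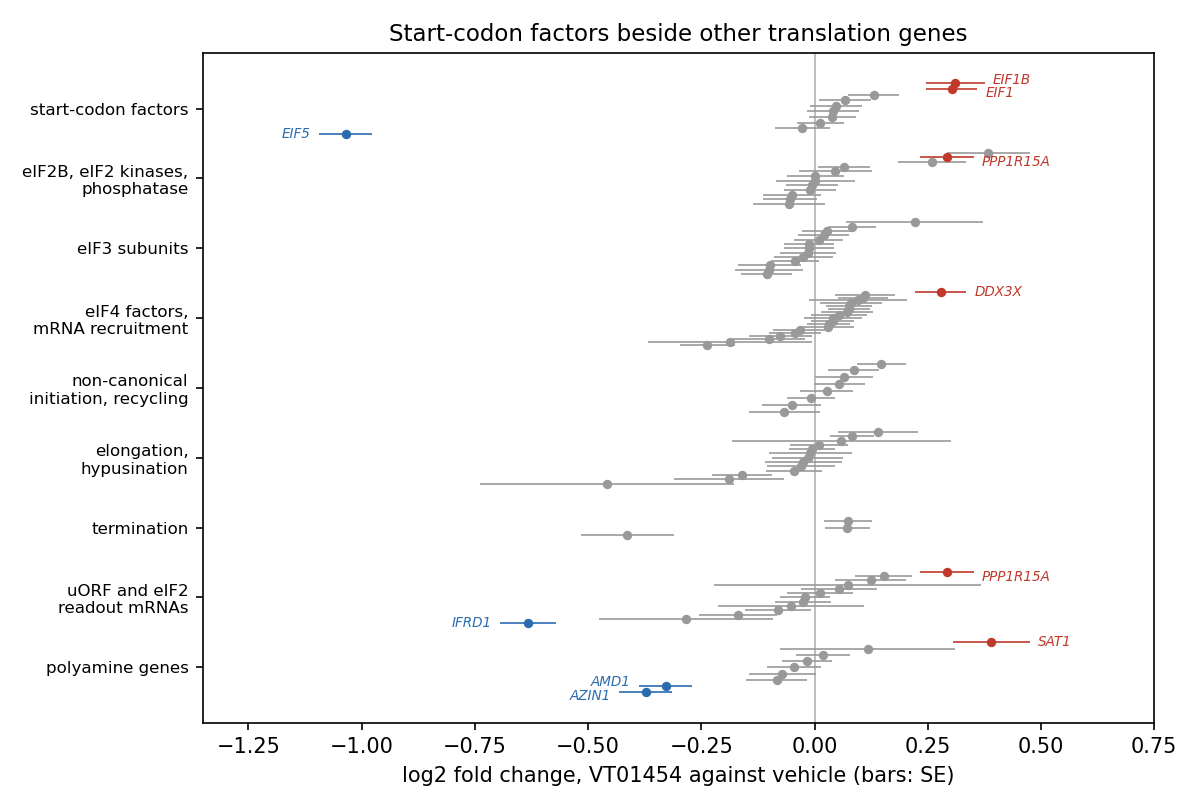
edgeR log2 fold change of compound against vehicle (points, with SE bars) for the 10 start-codon selection genes in the top row and for 8 of the lists of other translation genes. Called genes are named and coloured (blue lower, red higher), grey points were not called, and PPP1R15A is in 2 lists. EIF5 at −1.04 lies further from 0 than any other point, and IFRD1 at −0.63 is the next lower call.

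The genes whose levels ran most like those of EIF5 over the 6 libraries were found among 9391 other genes with a mean of at least 10 CPM. Likeness was Pearson's r of log2(CPM + 1), given as a description: the points share their libraries and scaling, and each of the 8 genes below separates the groups. The 8 closest were NEAT1 (r = 0.999), IFRD1 (0.997), MARS2 (0.995), MOSPD1 (0.993), CCN2 (0.992), DDX42 (0.991), KBTBD6 (0.991) and SLC16A1-AS1 (0.991). NEAT1, the long non-coding RNA of paraspeckles, went from 80.8 ± 3.35 to 49.1 ± 0.0994 CPM and MARS2, a mitochondrial methionyl-tRNA synthetase gene, from 43.3 ± 1.21 to 34.5 ± 0.659 CPM. CCN2 went from 165 ± 7.15 to 75.1 ± 0.549 CPM. A high r did not need a large difference, since MOSPD1 went only from 20.5 ± 0.281 to 18.5 ± 0.104 CPM and did not pass the test (edgeR adjusted p = 0.4003).

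**Figure D4:**
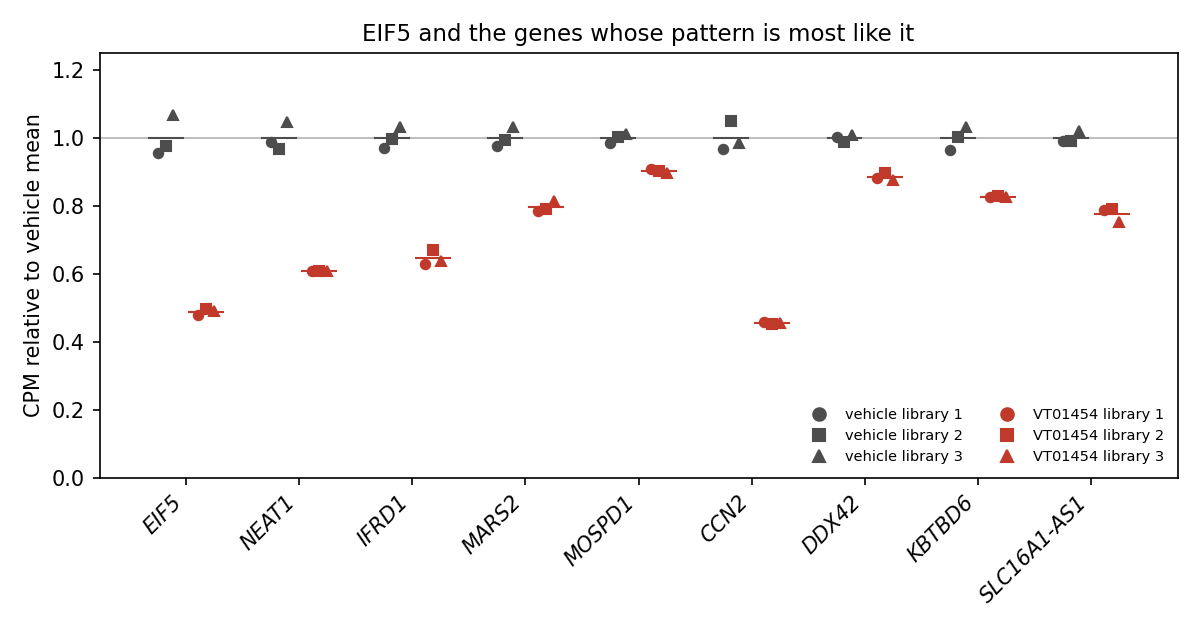
CPM divided by the vehicle mean, on a linear axis from 0, for EIF5 and the 8 genes whose pattern over the 6 libraries was most like it. Points are libraries (grey, vehicle; red, VT01454) and short lines are group means. All 9 genes are lower in each compound library than in each vehicle library, with the smallest difference for MOSPD1 and the largest for CCN2.

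Libraries held 19126039 to 28880374 counts, and 1 count was worth 0.0346 to 0.0523 CPM, which is small beside the level of each of the 10 genes. Markers of HEK293 cells summed to 2329 to 2650 CPM over 10 genes with vehicle and 2401 to 2485 with compound, with KRT8 (963 CPM) and NEFL (676 CPM) the highest with vehicle. PAX2 of this list was at 0.518 CPM with vehicle, and DLX5 fell from 2.59 ± 0.420 to 1.29 ± 0.0519 CPM with compound (edgeR adjusted p = 0.0327). NEFM of this list measured 4.10, 6.58 and 0.369 CPM with vehicle and 0.140, 3.74 and 3.80 CPM with compound. It thus differed widely between libraries within both groups, which the sum does not show. Leukocyte markers summed to 0.406 to 1.04 CPM with vehicle and 0.858 to 1.13 with compound over 5 genes, with PTPRC, CD3E and LYZ at or below 3 counts on average, and endothelial markers to 1.93 to 2.64 and 1.55 to 2.17, with PECAM1, CDH5 and TEK at or below 3. Fibroblast markers, which were 29.3 to 42.9 CPM with vehicle and 26.5 to 37.8 with compound over 6 genes, overlapped between the groups. Adult proximal tubule markers were low, at 8.01 to 9.25 CPM with vehicle and 7.43 to 7.68 with compound over 5 genes, and did not overlap. LRP2, the highest of these, was at 6.53 CPM with vehicle and 6.44 with compound. CUBN, at 8 to 32 counts per library, went from 1.11 to 0.383 CPM and did not pass (edgeR adjusted p = 0.0760). The part of these markers in the results was not tested.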

How the data were processed

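The authors deposited 1 table of unnormalized counts by Ensembl ID for each library. The tools were HISAT2 (version 2.2.1) and HTSeq (version 0.9.1) with build hg38, per the submitters' processing notes. Which annotation and strand setting were used is not given in the sources used here. Symbols were matched to 60357 of 60676 IDs; positions, exons and start sites came from GENCODE release 29 (GRCh38; 58503 IDs found). For each gene the start codon shared by most of its coding transcripts was used.

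Genes kept by filterByExpr were fitted with edgeR 4.0.16 in R 4.3.3 (TMM, robust quasi-likelihood F-test, two-sided), with adjustment over all 15577 tested genes and calls at an adjusted p below 0.05. SE is the log2 fold change over the square root of F. The pipeline was tested on simulated data with the same dispersion in all genes and both groups. The libraries here differ in spread, so nothing about their calls is read from that test. Alternatives were DESeq2 1.42.0, limma-voom (limma 3.58.1), other scalings and filters, a replicate block and leaving out each library.

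The members and lists were chosen with earlier results of these data known. Genes named are the members, called genes of the lists and otherwise up to 2 per list by p, 3 tested neighbours of EIF5 on each side, and the 8 genes most like it. EIF2B5, EIF2AK3, EIF4A2, ODC1, ATF4, ASNS, CHAC1, DDIT3, NEFM, SNORA28, EEF1G and EIF4A1 and copies of the members were added after their values were seen. The same holds for EIF3C, EEF1A1, CUBN and LRP2.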

Additional observations from a re-analysis of the deposited data

How the results depend on the processing

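Leaving out single libraries moved the counts of calls most. With 1 library left out, genes called higher ran from 73 to 1170 and genes called lower from 20 to 636, against 198 and 96 with all 6 libraries; the extremes were without vehicle library 1 and without vehicle library 3. In the same refits further translation genes called higher ran from 0 to 7 and lower from 1 to 7, and of the 10 start-codon selection genes 0 to 3 were called higher and 1 lower. Without a count filter 508 genes were called higher and 205 lower, and 5 further translation genes higher. With the replicate number as a replicate block 232 genes were called higher and 107 lower, and the same numbers of start-codon selection genes (2 higher, 1 lower) and further translation genes (3 and 3). Same-numbered libraries did not deviate together (correlations −0.0983, −0.0336 and 0.00756 over 13409 genes), so the numbers were not taken as pairs. The log2 fold change of EIF5 stayed between −1.07 and −0.99 in all 13 alternatives, that of EIF1 between 0.27 and 0.35 and that of EIF1B between 0.28 and 0.34. With library size alone all 10 genes shifted by −0.0233 to −0.024, as this scaling moves every gene of a library by 1 factor, and EIF2S1, close to 0, went from 0.013 to −0.011. EIF2S2 went from −0.03 to 0.04 without vehicle library 2; neither gene was called in any setting. With 1 library left out the log2 change of the EIF5 ratios ran from −1.40 to −0.93 over the 9 partners; dividing by exonic length cannot change it.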
